A study of Mus musculus with 168 samples.

Results

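The 10 genes described here are the Notch receptors Notch1, Notch2 and Notch3, the ligands Dll1, Dll3 and Jag1, the Fringe enzymes Mfng and Lfng, and the target genes Hes1 and Hes5, of 42405 gene symbols measured. They were taken by name from the pathway, and earlier results of these data were known when they were chosen. Smart-seq2, which profiles full-length cDNA from single cells, was used on 150 cells of old male C57BL/6 mice. Cells labelled as old neural stem cells came from the subventricular zone (SVZ), the germinal layer lining the lateral ventricle, with 68 cells in a series named ogp and 65 in a series named ogp2. They were gated for GLAST and CD133 with CD45 and O4 excluded, and their age label is 23 months, while the protocol text gives 22 months and 4 old mice pooled per replicate. Cells labelled as astrocytes, gated for GLAST alone with CD45 and O4 excluded, came from the striatum freed of SVZ (13 cells, 11 of a series named OGStr and 2 named OStr) and from the somatosensory cortex (4 cells), with an age label of 25 months. For astrocytes too, 3 or 4 mice were pooled, cells were picked by hand and no cell is tied to an animal, so each tissue is 1 sample and no difference between groups was tested. The labels name no treatment or transgene, and the 18 libraries of sorted populations were not analysed here. Age, gate and deposited table differ between SVZ cells and astrocytes along with tissue, and these cannot be told apart.

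Notch receptors are cut when a ligand on a neighbouring cell binds them, and the freed intracellular part enters the nucleus and joins the DNA-binding protein RBPJ to switch on targets such as Hes1 and Hes5. In the adult SVZ this signal is known for holding stem cells in an undifferentiated state, with Notch2 linked to quiescence, while Delta ligands are known from the more active progenitors. Fringe enzymes add sugars to the receptors and so alter which ligands they respond to, and Dll3 is known as a ligand that acts inside the cell that makes it.

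Values are TPM, a length-scaled share of each cell's transcripts, and a gene was counted as detected at 1 TPM or more. Read numbers cannot be recovered from TPM, the depth is unknown, and a gene listed at 0 may have been missed. SVZ cells had 1946 to 8046 genes detected (median 3517), striatum cells 2880 to 3968 (median 3662) and cortex cells 3051 to 3782 (median 3412). The listed genes of 5 ogp cells summed to only 66189 to 309864 TPM as deposited, and all cells were rescaled to the same sum. The GLAST gene Slc1a3 was found in every SVZ and striatum cell, and the CD45 gene Ptprc in 0 of the 150 cells. Of the 7 other microglial markers, Itgam, Cx3cr1 and Tmem119 were in 0 cells, P2ry12 in 13 and C1qb in 5 SVZ cells. A single intermediate ogp cell (replicate 91) held 3762 TPM of C1qb, 598 TPM of C1qa and 391 TPM of Csf1r, and with Jag1 at 93.2 TPM it is counted among the Jag1 cells below. Shares of cells are given with exact 95% Clopper-Pearson intervals, which cover counting error only, and each SD is a spread between cells.

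The stretches of DNA before the RefSeq starts of the members are shown because the Hes5 window holds the RBPJ motif on both strands. A window of each ligand gene holds a different motif, which the Lfng window holds too. The windows are the 250 bases before the RefSeq start on GRCm38.p6. Capitals mark the RBPJ motif GTGGGAA, searched on both strands, or the E-box CAGCTG, which reads the same on both strands and is a kind of motif that basic helix-loop-helix factors bind. The RBPJ motif was in 5.42% and the E-box in 13% of all 32851 windows of this length. The Hes5 window at chr4:154960673-154960922 (plus strand) held 2 RBPJ motifs, 226 to 220 and 83 to 77 bases before the start, the farther on the opposite strand. The Dll1 window at chr17:15376933-15377182 (minus strand) held 1 E-box, and a second Dll1 start at chr17:15375824-15376073 had neither motif.
Hes5: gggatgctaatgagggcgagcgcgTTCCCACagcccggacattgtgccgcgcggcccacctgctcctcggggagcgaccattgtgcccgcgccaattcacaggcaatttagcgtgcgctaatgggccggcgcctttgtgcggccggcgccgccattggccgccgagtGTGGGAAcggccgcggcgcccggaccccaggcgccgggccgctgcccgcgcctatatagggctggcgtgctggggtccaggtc
Dll1: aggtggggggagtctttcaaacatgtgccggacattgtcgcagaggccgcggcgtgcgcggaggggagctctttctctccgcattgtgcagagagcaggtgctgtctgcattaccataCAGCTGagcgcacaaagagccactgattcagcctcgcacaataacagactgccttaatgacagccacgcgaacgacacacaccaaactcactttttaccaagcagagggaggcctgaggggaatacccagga
For Dll3, Jag1 and Lfng only the 30 bases around the motif are shown. They lie at chr7:28301786-28301815 for Dll3 and chr2:137116585-137116614 for Jag1 (both minus strand), and at chr5:140607220-140607249 and chr5:140607183-140607212 for the RBPJ motif and the E-box of Lfng (plus strand).
Dll3 E-box: aaatataagactccggcatccagCAGCTGc
Jag1 E-box: ccgcgtttcatgCAGCTGatctgaaaggga
Lfng RBPJ: tccgtatcccacGTGGGAAggagagatctc
Lfng E-box: ccgtgggtacccCAGCTGggtggttcccag
The Notch1, Notch2 and Notch3 windows held neither motif, and 8 of the 10 members had an entry, all but Mfng and Hes1. These matches are descriptions of letters and say nothing of whether a factor was bound.

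Notch1 and Notch2 were the receptors of every group, and Notch3 was rare. Notch1 averaged 36.4 TPM in SVZ (SD 48.3, range 0 to 262, median 21.5) and was detected in 93 cells (69.9%, interval 61.4 to 77.6). In striatum it averaged 36.4 TPM (SD 39.2, range 0 to 139, median 32.9) with 10 of 13 cells detected. The 4 cortex cells had 87.9, 34.2, 59.7 and 59.8 TPM of Notch1, a mean of 60.4, and all lay within the range of the SVZ cells. Notch2 averaged 34.7 TPM in SVZ (SD 33.7, range 0 to 180, median 26.1) and was the most widely detected member there, in 120 cells (90.2%, interval 83.9 to 94.7). All 13 striatum cells had Notch2, between 9.99 and 82.9 TPM with a median of 25.6 and a mean of 32.8 TPM. The cortex cells had 5.25, 0, 0 and 11.8 TPM of Notch2, a mean of 4.26, so that 3 of the 4 lay below the lowest striatum cell and the highest lay just above it. Notch3 was detected in 9 SVZ cells (6.77%, interval 3.14 to 12.5) at 3.12 to 59.7 TPM, in 2 striatum cells at 1.23 and 20.3 TPM and in 0 of 4 cortex cells, a share that may be as high as 60.2%.

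Every one of the 17 astrocytes had at least 1 of the 3 receptors. By summed level Notch1 stood above Notch2 in each tissue, narrowly in striatum and SVZ and widely in the 4 cortex cells. Notch1 exceeded Notch2 in 4 of 4 cortex cells, in 8 of 13 striatum cells and in 59 SVZ cells, while Notch2 was the higher in 71 SVZ cells and 3 were equal. In cortex Notch1 made up 93.4% of the summed mean TPM of the 3 receptors, against 51.4% in striatum and 50.04% in SVZ. The summed means were 72.7, 70.9 and 64.7 TPM in SVZ, striatum and cortex, which differ by less than the spread between cells. Both OStr cells had little Notch1 (5.22 and 0 TPM) and stood among the 3 highest striatum cells for Notch2 (82.9 and 48.02 TPM).

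The ligands and Mfng were listed at 0 in all 17 astrocytes and were present in a minority of SVZ cells. Dll1 was detected in 19 SVZ cells (14.3%, interval 8.83 to 21.4), with levels of 19.4 to 420 TPM and a median of 78.3 among those cells. Dll3 was detected in 16 (12.03%, interval 7.04 to 18.8) at 21.6 to 261 TPM with a median of 69.6. Jag1 was the commonest ligand, in 37 cells (27.8%, interval 20.4 to 36.3) at 3.20 to 283 TPM with a median of 40.4. Mfng was in 9 cells (6.77%) at 32.1 to 221 TPM with a median of 99.5. None of these 4 genes was a low trace in many cells: each was listed at or near 0 in most SVZ cells, and their mean levels over all SVZ cells were 17.1, 11.1, 15.4 and 7.92 TPM. With 0 of 17 astrocytes holding any ligand, the share in astrocytes may be as high as 19.5%, so cell number limits this comparison. The share of SVZ cells with any ligand was 30.8% (41 cells, interval 23.1 to 39.4), and it was 14.9% among the SVZ cells with few ribosomal transcripts that are set apart below, a value inside the limit for astrocytes.

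Lfng, unlike its relative Mfng, was nearly everywhere. It averaged 53.4 TPM in SVZ (SD 69.02, range 0 to 456), where most cells had it (87.2%, interval 80.3 to 92.4). Striatum cells ranged from 1.53 to 125.8 TPM with a median of 23.4 and a mean of 41.6, and the cortex cells had 22.3, 28.6, 28.6 and 66.4 TPM. The groups overlapped almost fully.

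Hes5 was the most abundant member in all 3 tissues, and Hes1 was patchy. Hes5 averaged 706 TPM in SVZ (SD 844, median 468, 87.2% of cells detected), 667 TPM in striatum (SD 772, median 418, 11 of 13 cells) and 334 TPM in cortex, where the cells had 117.2, 338, 450.1 and 429 TPM. Hes1 averaged 73.4 TPM in SVZ (SD 201) but its median there was 0.970 TPM, with 66 cells detected (49.6%, interval 40.8 to 58.4). A single striatum cell, of the OStr series, held Hes1 at 519 TPM and the other 12 were listed at 0. The cortex cells had Hes1 at 6.52, 0, 4.16 and 32.7 TPM. Hes1 exceeded Hes5 in only 15 SVZ cells, 1 striatum cell and 0 cortex cells. By mean TPM, which is scaled by length, the order in SVZ was Hes5, Hes1, Lfng, Notch1, Notch2, Dll1, Jag1, Dll3, Mfng and Notch3 (1.64 TPM), and from Hes1 down every neighbouring pair differed by less than its SD between cells.

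**Figure D1:**
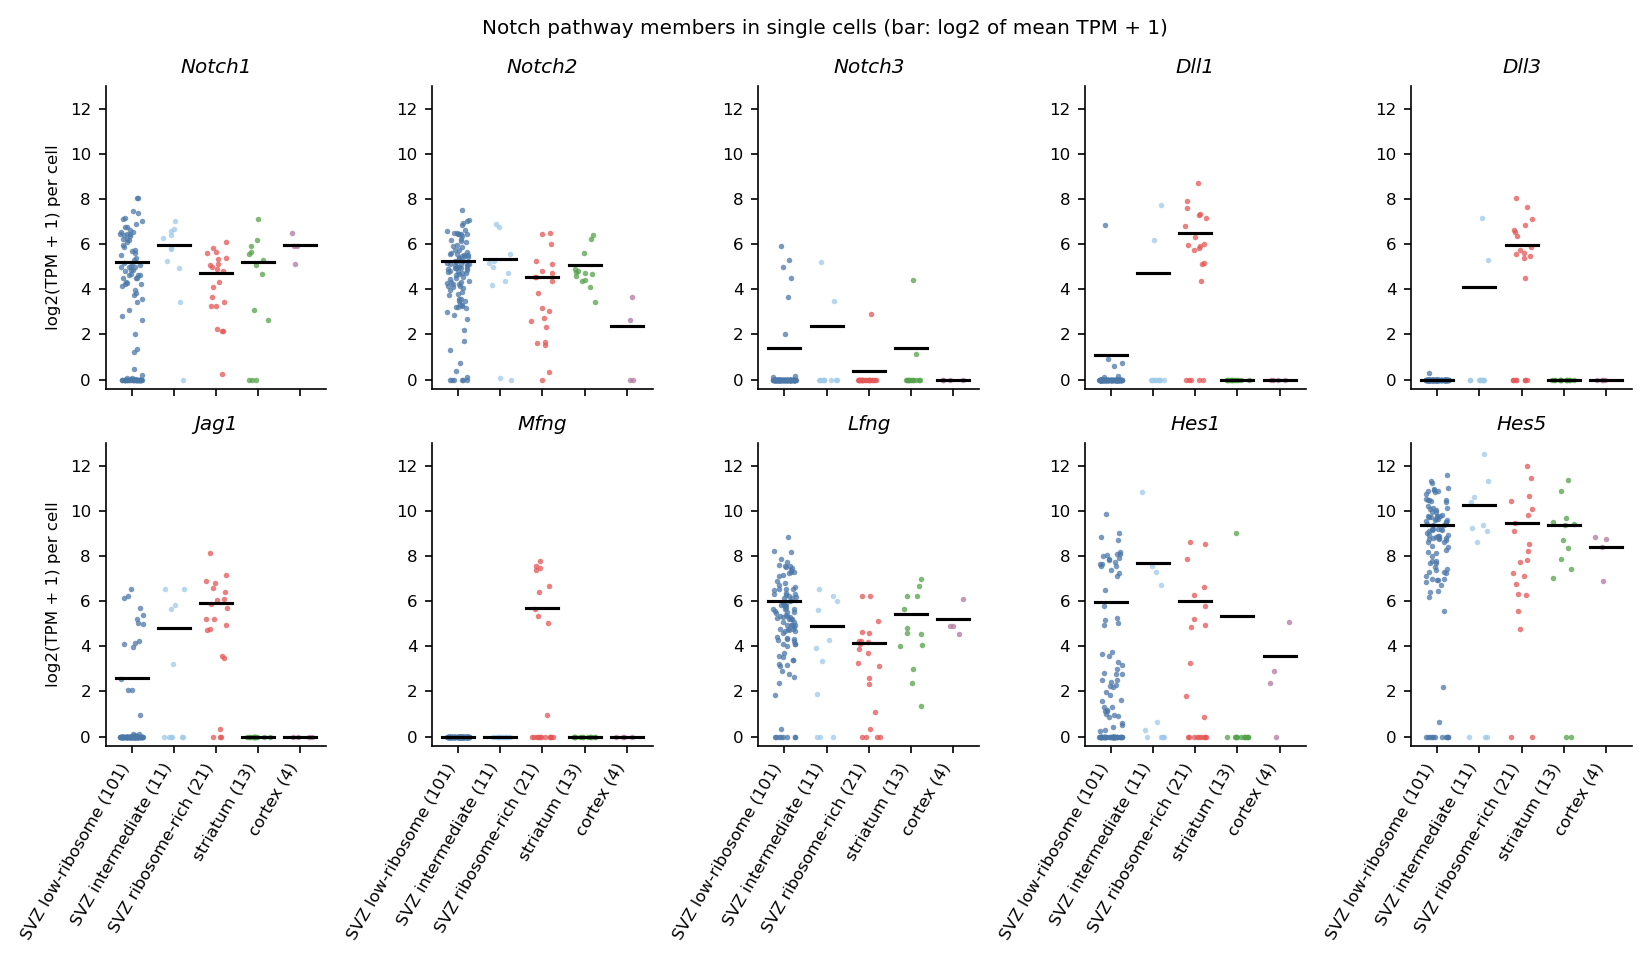
Level of each of the 10 members in every cell, as log2(TPM + 1), for SVZ cells split by ribosomal share (low-ribosome, with 46 ogp and 55 ogp2 cells, 11 intermediate and 21 ribosome-rich cells), 13 striatum cells and 4 cortex cells. Points are cells and bars are log2 of the mean TPM + 1. The ligands and Mfng sit at 0 in all astrocytes. Dll1, Dll3 and Mfng are found mostly in ribosome-rich SVZ cells and Jag1 also in 15 low-ribosome cells, whereas Notch1, Notch2, Lfng and Hes5 overlap between groups.

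Differences between tissues were read from means as the log2 ratio of group means after adding 1 TPM, first group over second, and genes needed 10 TPM in either group. Against SVZ, 8 members could be compared in striatum. Of these 0 were at least 2-fold higher, where 12.3% of all genes were, and 3 were at least 2-fold lower, where 28.3% were: Dll1, Dll3 and Jag1, listed at 0 in striatum. These 3 reached 10 TPM only in SVZ, so here and against cortex they could enter only as higher in SVZ. Notch2 (-0.08), Lfng (-0.35), Hes5 (-0.08) and Notch1 lay close to SVZ. With the ligands entered at 0, the median over the 8 members was -0.61, beside -0.26 over all 9080 genes compared. Against only the low-ribosome SVZ cells set apart below, 5 members could be compared with striatum. Of these 0 were at least 2-fold higher, where 1256 of 8831 genes were, and 0 lower, where 2165 were. Their median was -0.16, beside -0.17 over all genes. In cortex 8 members could be compared with all SVZ cells. Of these 0 were at least 2-fold higher, against 20.7% of genes, and 6 were at least 2-fold lower, against 43.4% of genes. Besides the 3 ligands these were Notch2 (-2.76), Hes1 (-2.65) and Hes5 (-1.08), while Notch1 was at 0.71 and Lfng at -0.54. With the 3 ligands entered at 0 here too, the median over the 8 members was -2.71, beside -0.49 over all genes compared. As the ligands could enter only as lower in cortex, this median is pulled down by the filter. With logs averaged over cells only 2 members were 2-fold lower in cortex and 1 was higher, and Hes5 changed sign to 0.43 and Lfng to 0.55. Against only the low-ribosome SVZ cells, 5 members could be compared with cortex. Here 0 were at least 2-fold higher, where 1952 of 8652 genes were, and 2 lower, where 3528 were. Their median was -0.96, beside -0.32 over all genes.

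Between the astrocytes of striatum and cortex, 5 members could be compared. Notch2 was higher in striatum by 2.68 and Hes1 by 1.79, so 2 were at least 2-fold higher, where 38.3% of genes were, and 0 were at least 2-fold lower, where 28.9% were. Hes5 was just under the limit at 1.00 but at -0.55 with logs averaged over cells, and Notch1 was at -0.72. The Hes1 value rests on the 1 OStr cell: with OGStr cells only it was -3.57, and with logs averaged over cells -1.89. The median over the 5 members was 1.00, beside 0.10 over all genes compared. Notch2 kept its direction in every setting tried, between 1.59 and 3.62, but cortex is 4 cells.

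Within the SVZ the detection of the ligands differed with the cells' content of ribosomal protein transcripts. The 77 cytosolic ribosomal protein genes took 0.659% to 14.8% of TPM per cell, and cells were called low-ribosome under 3% (46 ogp and 55 ogp2 cells), intermediate (11) or ribosome-rich at 6% or more (21). This is a range cut from a per-cell score and not a cell type: 25 cells lay between 2% and 4% and 6 between 5% and 7%. Dll1 was in 1 low-ribosome cell (0.99%, interval 0.0251 to 5.39), 2 of 11 intermediate and 16 of 21 rich cells (76.2%, interval 52.8 to 91.8). Dll3 was in 0 low-ribosome cells, 2 of 11 and 14 of 21 (66.7%, interval 43.03 to 85.4). Jag1 was in 15 low-ribosome cells (14.9%, interval 8.56 to 23.3), 5 of 11 and 17 of 21 (80.95%, interval 58.1 to 94.6). Mfng was in 0 low-ribosome cells (up to 3.59%), 0 of 11 and 9 of 21 (42.9%, interval 21.8 to 65.98). The intervals of low-ribosome and rich cells did not overlap for any of these 4 genes. For what share of all genes this also holds was not computed, and rich cells had more genes detected (median 6326 against 3250).

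In mean level, Dll1 was 1.15 TPM in low-ribosome and 89.4 TPM in rich cells (log2 difference 5.39), Dll3 0.00238 and 61.7 TPM (5.97) and Jag1 4.97 and 59.3 TPM (3.34). Mfng was listed at 0 in all low-ribosome cells and averaged 50.2 TPM (SD 74.5) in rich ones. Lfng went the other way, from 63.7 TPM (SD 75.03) to 16.7 TPM (SD 21.4), a log2 difference of -1.87. The other comparable members differed by less than 2-fold: Notch1 (-0.47), Notch2 (-0.68), Hes1 (0.04) and Hes5 (0.11). The direction of these was not stable: Notch1 was at 0.91 with logs averaged over cells and 0.14 between the highest and the lowest of 4 groups of SVZ cells ranked by ribosomal share, and Notch2 at 0.09 with ogp2 cells only. Thus 4 of 9 members were at least 2-fold higher in rich cells, where 26.8% of 9283 genes were, and 1 was at least 2-fold lower, where 23% were. These 4, Dll1, Dll3, Jag1 and Mfng, reached 10 TPM only in rich cells. They could therefore enter the comparison only as higher there, and their count adds no separate evidence. The median over the members was 0.11, beside 0.16 over all genes compared. The receptors were present on both sides. Notch1 was in 63 low-ribosome cells (62.4%, interval 52.2 to 71.8) and 20 of 21 rich cells (95.2%, interval 76.2 to 99.9), and Notch2 in 92 low-ribosome cells (91.1%) and 19 of 21 rich cells (90.5%). In those that had it, Notch1 had a median of 34.2 TPM in low-ribosome and 27.7 TPM in rich cells.

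Several other measures moved with the ribosomal share. Rich cells had a median of 6326 genes detected and low-ribosome cells 3250, and 10 of the 21 rich cells but 0 low-ribosome cells were mitotic, defined as 5 or more of 23 G2 and M phase genes at 10 TPM. The summed level of the 13 astrocyte and quiescent stem cell markers had a median of 71263 TPM in low-ribosome cells (range 22643 to 137337) and 5426 TPM in rich cells (924 to 51205). The list of 8 markers of activated stem cells and transit amplifying cells includes Rpl32, itself a ribosomal protein gene and so tied to how the classes were made, which took 91.03% of the list's TPM in low-ribosome and 64.6% in rich cells. The 7 others, which include Mki67, had a median sum of 0.350 TPM in low-ribosome cells (0 to 325) and 1055 TPM in rich cells (93.8 to 3641). Of the neuroblast markers, Dlx5, Dlx6os1 and Sp8 were detected in 0 SVZ cells, and the list's median sum was 61.7 TPM in rich cells (0 to 624) and 0 in low-ribosome cells (0 to 189). Tubb3 was in 8 rich and 0 low-ribosome cells, Cd24a in 6 and 0, Dlx1 in 4 and 3 and Dcx in 2 and 0. Stmn2 was in 1 and 0, and Gad1 in 2 and 8. Among rich cells the list's median sum was 104.7 TPM in the 16 with Dll1 (0 to 624), and it was 0 in all 5 without. The part of these measures in the ligand pattern was not tested. The split was not the same in both series. The 15 rich ogp cells had Dll1 in 14, Dll3 in 14, Jag1 in 13 and Mfng in 8, while the 6 rich ogp2 cells had Dll1 in 2, Dll3 in 0, Jag1 in 4 and Mfng in 1. With ogp2 cells only, 2 members were at least 2-fold higher in rich cells, Dll1 (2.02) and Jag1 (3.61), while Dll3 was at 0 in both classes. Without the 5 cells with low column sums the count was 4, the same as with them.

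**Figure D2:**
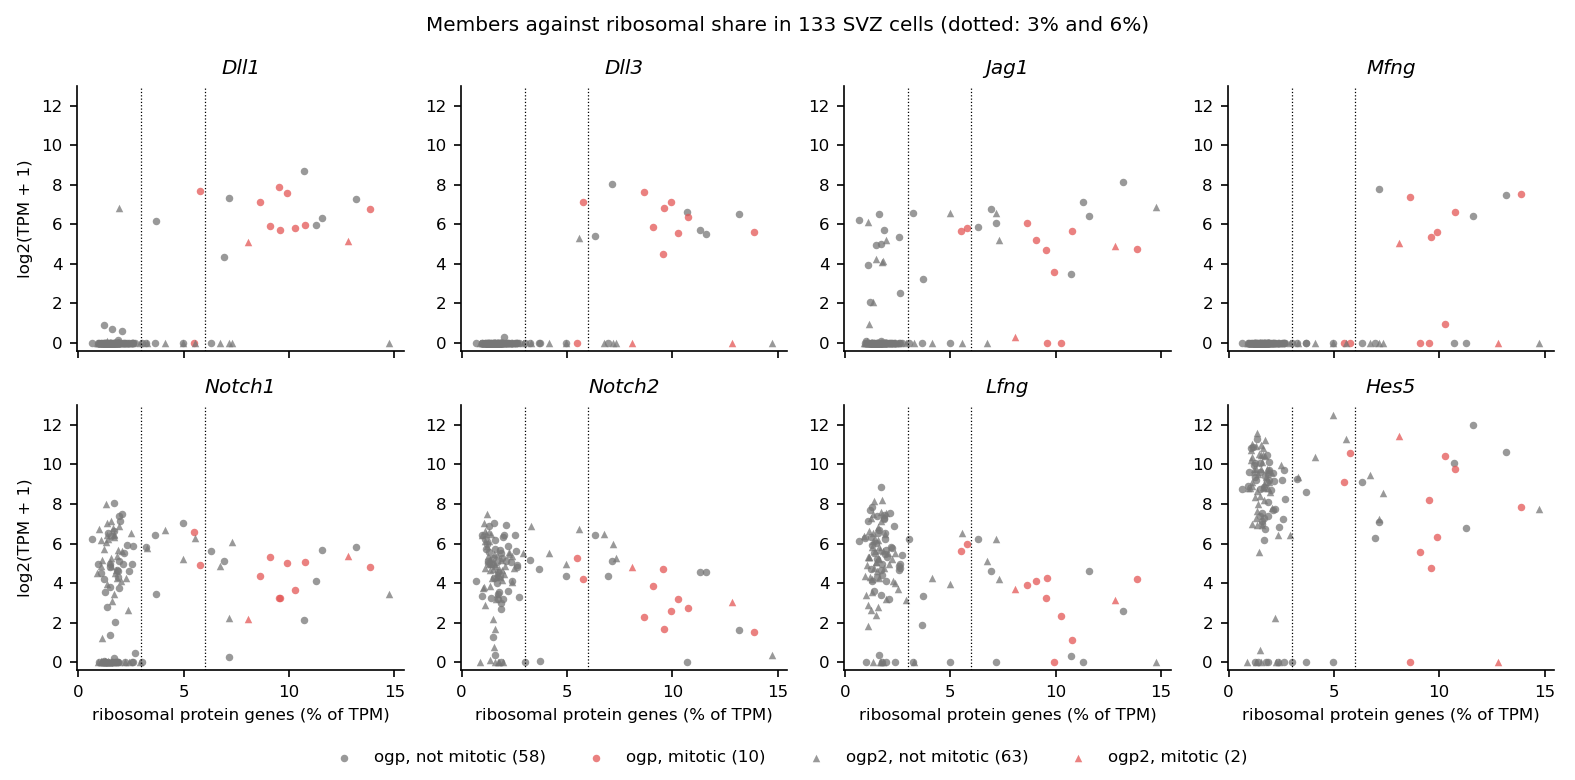
Level of 8 members in all SVZ cells against the share of TPM in ribosomal protein genes, with circles for ogp cells, triangles for ogp2 cells and red for the 12 mitotic cells. Dotted lines mark 3% and 6%. Dll1, Dll3 and Mfng lie to the right of the lines apart from a few cells, Jag1 is also found at low shares, and Notch1, Notch2, Lfng and Hes5 span the axis.

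**Figure D3:**
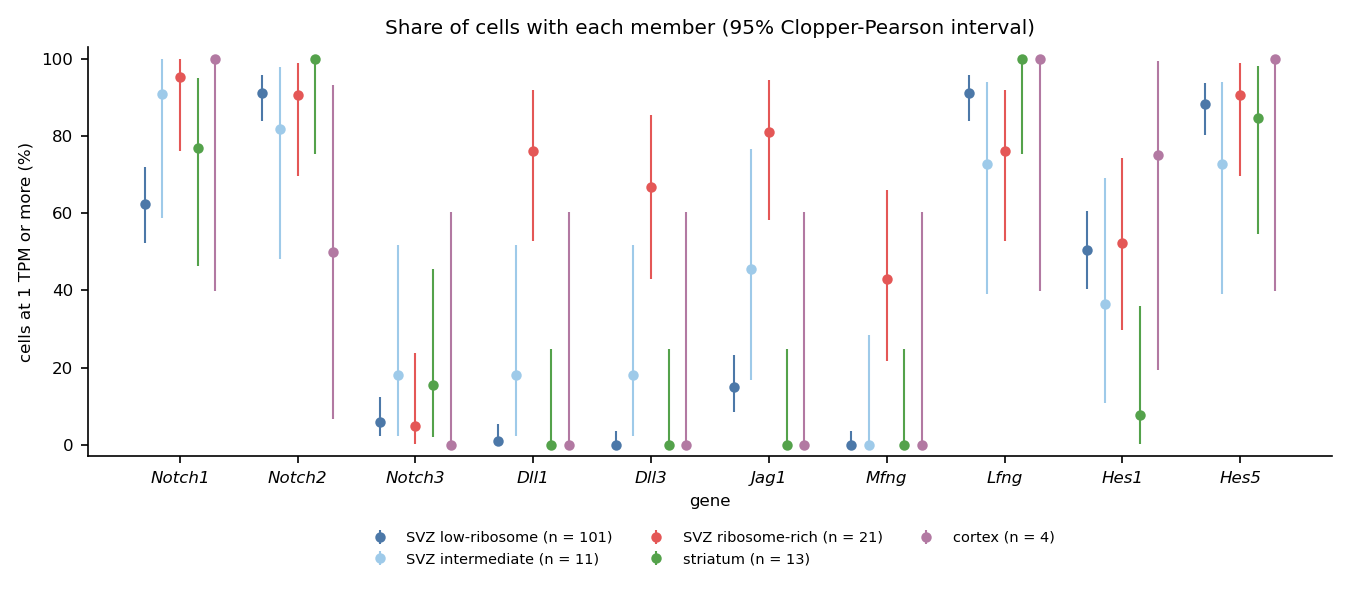
Share of cells with each member at 1 TPM or more in the 3 SVZ classes, striatum and cortex, with 95% Clopper-Pearson intervals (n in the legend). The rich cells stand at 42.9% to 80.95% for Dll1, Dll3, Jag1 and Mfng, and the intervals of the 4 cortex cells span most of the axis.

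Among the 21 rich cells, mitotic and non-mitotic ones differed by at least 2-fold in Jag1, Notch2 and Lfng and not in Dll1 or Dll3. By this limit 3 of 9 members were lower in mitotic cells, where 2045 of 8977 genes were, and 0 were higher, where 1868 were. All 10 mitotic rich cells had Dll1, between 33.6 and 239 TPM, against 6 of 11 non-mitotic ones, between 0 and 420 TPM, and the mean levels were 98.2 and 81.5 TPM. This difference in detection followed the series: among rich ogp cells Dll1 was in 8 of 8 mitotic and 6 of 7 others, and among rich ogp2 cells in 2 of 2 mitotic and 0 of 4 others. Jag1 was lower in mitotic rich cells, with a mean of 24.4 TPM (7 of 10 cells) against 91.1 TPM (10 of 11 cells), a log2 difference of -1.86. Notch2 averaged 9.97 TPM in mitotic rich cells (range 1.86 to 26.9) and 34.01 TPM in the others (0 to 87.96), a difference of -1.67. Lfng averaged 9.85 and 23.0 TPM (-1.14), but among rich ogp cells it differed by less than 2-fold, with 9.83 and 18.1 TPM. The ranges of mitotic and non-mitotic rich cells overlapped for each of these genes. Dll3 (70.7 and 53.5 TPM) and Mfng (57.2 and 43.8 TPM) differed by less than 2-fold. Of the 12 mitotic SVZ cells, 11 had Dll1.

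The 3 cells with Dll1 outside the rich class were looked at singly. An intermediate ogp cell (replicate 84), with 208.6 TPM of Dll1, 140.5 TPM of Dll3 and 55.4 TPM of Jag1, was mitotic with all 23 genes and had a ribosomal share of 5.76%, near the limit of 6%. The other two, a low-ribosome ogp2 cell (replicate 76, Dll1 at 113.8 TPM) and an intermediate ogp cell (replicate 14, Dll1 at 71.1 TPM), carried transcripts of oligodendrocyte progenitors. They were the only SVZ cells with Sox10 (399 and 132.2 TPM) and Pdgfra (1177 and 245 TPM), and their Olig2 levels were 1091 and 1006 TPM. Both also had Jag1 (35.5 and 8.42 TPM) and neither had Dll3, Mfng or detectable Notch2. These 2 cells were singled out after their values were seen. Olig2 was also found outside them, in 13 of 16 rich cells with Dll1, at a mean of 63.2 TPM, and in 0 of 5 rich cells without. Olig1 was in 10 of those 16 and 1 of those 5.

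Co-detection asks whether a cell that makes a ligand also carries receptors. Nearly all SVZ cells had a receptor whether or not a ligand was found: 40 of the 41 cells with any ligand (97.6%, interval 87.1 to 99.9) and 89 of the 92 cells without (96.7%, interval 90.8 to 99.3). The ligand-bearing cell with no receptor was replicate 76 above. Both Notch1 and Notch2 were found in 30 of the 41 (73.2%) and 54 of the 92 (58.7%).

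Notch1 was found more often beside each ligand. It was in 17 of 19 cells with Dll1 (89.5%, interval 66.9 to 98.7) against 76 cells without (66.7%, interval 57.2 to 75.2). For all genes compared, 82.2% of 8403 were detected in a higher share of Dll1 cells than of the others, so a higher share is what most genes showed. It was in 15 of 16 cells with Dll3 (93.8%, interval 69.8 to 99.8) against 78 cells without (66.7%), where 82.3% of genes stood higher in Dll3 cells. It was in 30 of 37 cells with Jag1 (81.1%, interval 64.8 to 92.04) against 63 of 96 without (65.6%), where 81.5% of 8402 genes stood higher in Jag1 cells. Cells with a ligand had more genes detected, with medians of 6467 against 3363 for Dll1, 6410.5 against 3385 for Dll3 and 4424 against 3287.5 for Jag1. No cell with Dll1 or Dll3 was among the 66 SVZ cells with the fewest genes. Within the low-ribosome cells Notch1 was in 9 of 15 Jag1 cells (60%, interval 32.3 to 83.7) and 54 of 86 others (62.8%), and within the rich cells in 15 of 16 Dll1 cells and 5 of 5 others.

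The share of cells with Notch2 was similar with and without each ligand. It was in 16 of 19 cells with Dll1 (84.2%, interval 60.4 to 96.6) and 91.2% of cells without (interval 84.5 to 95.7), and in 32 of 37 cells with Jag1 (86.5%) and 88 of 96 without (91.7%). Beside Dll3 it stood slightly the other way, in 15 of 16 cells (93.8%) against 89.7% without. The intervals overlapped in each case. Its level differed more than its share: the median was 7.12 TPM in Dll1 cells (mean 11.5, SD 10.8) and 30.01 TPM in the rest (mean 38.6, SD 34.6). Within the rich class the medians were 7.58 TPM in the 16 cells with Dll1 and 62.7 TPM in the 5 without. Lfng showed the same order within that class, with medians of 8.16 and 33.2 TPM. All 10 mitotic rich cells were among the 16, and 4 of the 5 cells without Dll1 were of the ogp2 series. Notch3 was in 0 of 19 Dll1 cells (a share of up to 17.6%) and 9 other cells, which this number of cells does not separate. Hes5 was in 16 of 19 Dll1 cells (84.2%) and 87.7% of the others, and Hes1 in 10 of 19 (52.6%) and 49.1%.

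Dll1, Dll3 and Mfng were found largely in the same cells, and Jag1 also outside them. Dll3 was in 14 of 19 Dll1 cells (73.7%, interval 48.8 to 90.9) and 2 other cells (1.75%, interval 0.213 to 6.19). Jag1 was in 16 of 19 Dll1 cells (84.2%) and 21 other cells (18.4%, interval 11.8 to 26.8). Within the rich class this contrast was absent, with Jag1 in 13 of 16 Dll1 cells (81.3%) and 4 of 5 others (80%), while Dll3 was in 13 of 16 and 1 of 5. All 9 Mfng cells had Dll1, which makes Mfng present in 9 of 19 Dll1 cells (47.4%, interval 24.4 to 71.1) and 0 other cells (up to 3.18%), and 8 of the 9 had Dll3. Of the 12 cells with all 3 ligands, 11 were rich and all 12 were of the ogp series. A set of 7 cells, all rich, had Dll1, Dll3, Jag1 and Mfng together. By contrast 20 of the 37 Jag1 cells had no other ligand and no Mfng, and only 3 of those were rich. Among the 66 SVZ cells with the most genes detected, Mfng was in 9 of 19 Dll1 cells and 0 of 47 others (up to 7.55%). Only rich cells had Mfng, and within that class it was in 9 of 16 Dll1 cells (56.3%, interval 29.9 to 80.2) and 0 of 5 others (up to 52.2%). These intervals overlap, so the rich cells alone are too few to separate Mfng by Dll1.

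**Figure D4:**
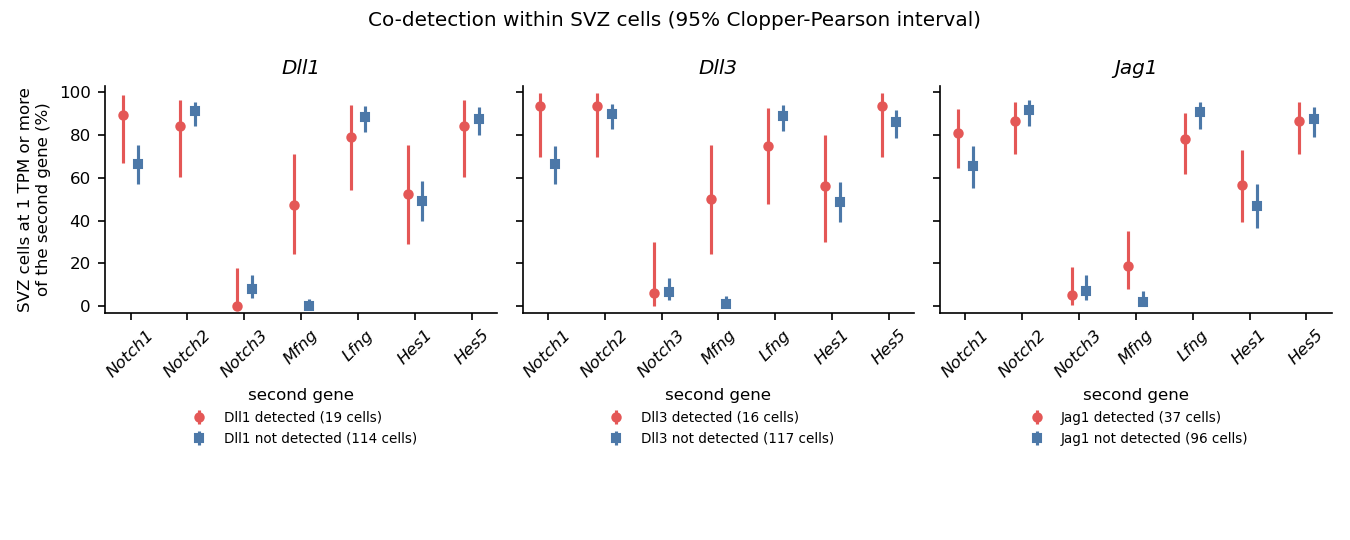
Share of SVZ cells with a second gene among cells with (red circles) and without (blue squares) each ligand, with 95% Clopper-Pearson intervals. Mfng is set apart, at 47.4% beside Dll1 and 0 without it, Notch1 stands higher beside each ligand with overlapping intervals, and Notch2, Lfng, Hes1 and Hes5 overlap.

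Across all SVZ cells Pearson's r of log2(TPM + 1) was 0.82 for Dll1 with Dll3, 0.71 for Dll3 with Mfng, 0.67 for Dll1 with Mfng and 0.52 for Dll1 with Jag1. These points share the zeros of the low-ribosome cells. Over the 21 rich cells Dll1 with Dll3 was at 0.70, Dll3 with Mfng at 0.57, Dll1 with Mfng at 0.52, Dll1 with Jag1 at -0.01, Dll1 with Notch2 at -0.47 and Notch2 with Lfng at 0.52. Genes with the most alike pattern were sought for members detected in at least 20 SVZ cells, among 7535 genes. For Jag1 they included Tead2 (0.65), a transcription factor of the Hippo pathway, and Mycn (0.63), a growth-promoting transcription factor. For the broad members the closest genes were weakly alike: Sox9 (0.39), Fxyd1 (0.36) and Cpe (0.36) for Notch2, Hnrnpm (0.38), Eef2 (0.35) and Ccdc174 (0.34) for Notch1, and Fam181b (0.44), Gpld1 (0.43) and Agpat5 (0.41) for Lfng. Hes5 was closest to Pxmp2 (0.31). These values describe cells that share libraries and depth and carry no test.

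**Figure D5:**
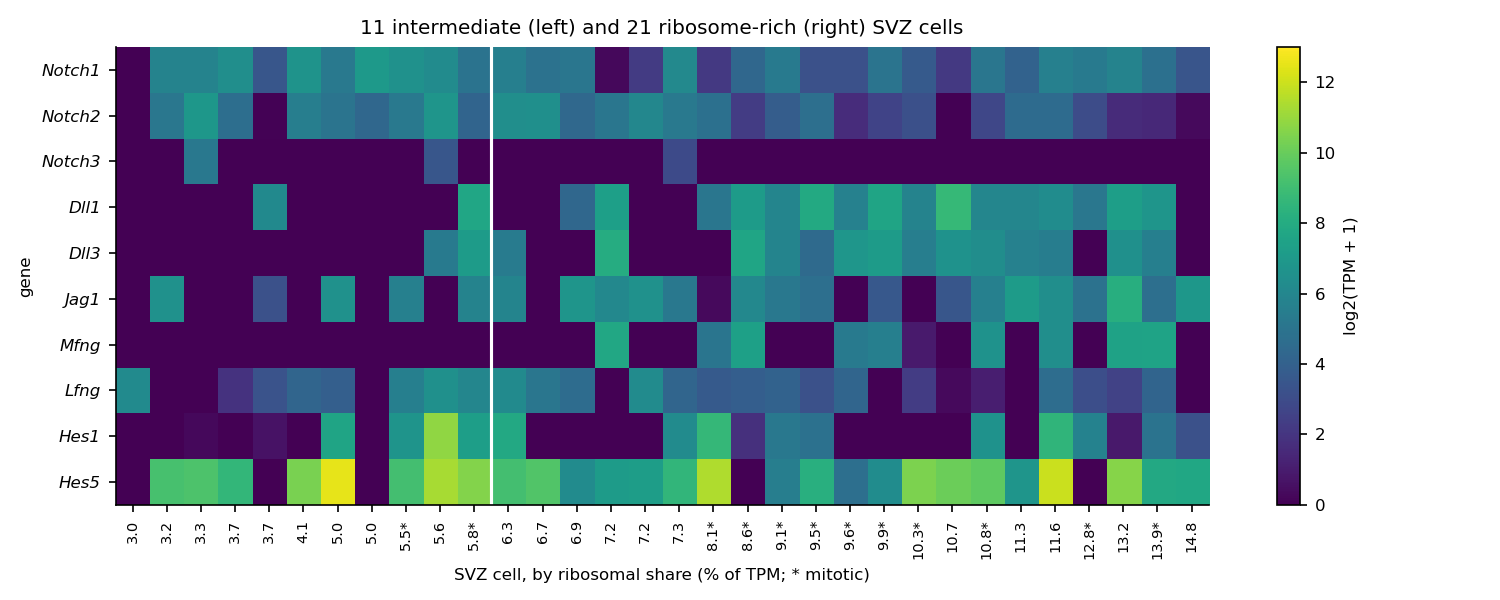
Level of the 10 members, as log2(TPM + 1), in the 11 intermediate (left of the white line) and 21 ribosome-rich SVZ cells, ordered by ribosomal share with asterisks on mitotic cells. Dll1, Dll3 and Jag1 fill most rich cells, Mfng 9 of them, and Hes5 runs through both classes.

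Another 42 genes of the pathway were listed by role. Between rich and low-ribosome SVZ cells 30 could be compared, of which 6 (20%) were at least 2-fold higher, where 26.8% of all genes were, and 7 (23.3%) lower, where 23% were. Hes6, a Hes relative known to oppose Hes1, averaged 946 TPM in rich cells, where all 21 had it, and 53.8 TPM in low-ribosome cells, where 20 cells had it (4.11). Rbpj, the DNA-binding partner of cleaved Notch, averaged 50.2 and 9.94 TPM (2.23), with 17 of 21 rich and 14 low-ribosome cells detected. The ligand Dll4 was in 7 of 21 rich cells, at a mean of 11.3 TPM, and was listed at 0 in all low-ribosome cells. Genes that reached 10 TPM only in rich cells, among them Rbpj and Dll4, could enter this comparison only as higher there. Fbxw7 (2.28), which marks the cleaved receptor for destruction, and the coactivator Snw1 (1.28) were also higher. Lower in rich cells were the acetyltransferase Kat2b (-2.60), the gamma-secretase subunits Aph1c (-2.55) and Psen2 (-1.94), the target Hey1 (18.8 against 73.6 TPM, -1.91), the fucosyltransferase Pofut1 (-1.57), Dtx3 (-1.20) and the Notch inhibitor Numb (-1.13). The median over these genes was -0.24, beside 0.16 over all genes compared.

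In striatum against SVZ 29 of the 42 could be compared, and 7 (24.1%) were at least 2-fold higher, where 12.3% of all genes were, and 7 (24.1%) lower, where 28.3% were, with a median of 0.01 beside -0.26 over all genes. The target Nrarp averaged 165 TPM in striatum and 60.3 TPM in SVZ (1.44), Hey2 34.9 and 10.1 TPM (1.70) and Heyl 20.6 and 6.89 TPM (1.45). The gamma-secretase subunit Aph1a was at 2.16, the receptor protease Adam10 at 1.06, Kat2b at 1.27 and the ligand-like Dner at 1.03. Numb (-3.29), Hes6 (-2.89), the ubiquitin ligase Mib2 (-1.97), Poglut1 (-1.69), Fbxw7 (-1.59) and Rbpj (-1.37) were among the lower. Here too genes that reached 10 TPM in only 1 group, such as Heyl in striatum and Numb and Rbpj in SVZ, could enter only as higher in that group. In cortex, compared with the same SVZ cells, 3 of 29 (10.3%) were higher, where 20.7% of all genes were, and 8 (27.6%) lower, where 43.4% were. Dtx2 (3.01), Dner (2.10) and Nrarp (161 TPM, 1.40) were higher, and Rbpj, Mib2 and Hey2 were among the lower and listed at 0. Against only low-ribosome SVZ cells 27 could be compared with striatum, with 7 (25.9%) higher and 6 (22.2%) lower. With cortex 28 could be compared, with 4 (14.3%) higher and 6 (21.4%) lower. Of all genes, 1256 of 8831 were higher and 2165 lower in striatum, and 1952 of 8652 higher and 3528 lower in cortex. Of striatum against cortex 27 could be compared, with 7 (25.9%) higher, where 38.3% of all genes were, such as Itch (4.13) and Aph1c (2.92), and 8 (29.6%) lower, where 28.9% were, such as Dtx2 (-4.99) and Numb (-3.86). Hey2 (34.9 TPM), Heyl (20.6 TPM) and Pofut1 (10.2 TPM) of striatum were listed at 0 in the 4 cortex cells. Neurl1a was listed at 0 in all cells and Jag2 stayed under 1 TPM in each tissue. Notch4 averaged 8.03 TPM in SVZ, of which 63.9% came from 1 cell at 683 TPM.

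The cells with Notch3, a receptor best known from the mural cells of vessels, were looked at for those markers. Of the 10 mural markers, Acta2, Kcnj8, Abcc9, Vtn, Higd1b and Myh11 were detected in 0 SVZ cells, as were the endothelial markers Flt1, Kdr, Tek, Cdh5, Emcn, Esam and Ly6c1. By contrast the mural marker Pdgfrb was in 8 of 9 Notch3 cells (88.9%, interval 51.8 to 99.7) and 52 of the SVZ cells without (41.9%, interval 33.1 to 51.1), and in 11 of 13 striatum cells. It was the only mural marker detected in Notch3 cells, and the summed mural level had a median of 56.2 TPM in Notch3 cells (0.0500 to 250.8) and 0.275 TPM in the others (0 to 296). Of the endothelial list Pecam1 was in 88 SVZ cells, at a mean of 1.95 TPM, and the list's median sum was 1.40 TPM in Notch3 cells and 1.58 TPM in the others. The part of these markers in the Notch3 pattern was not tested. Of the 9 Notch3 cells, 6 were low-ribosome, 2 intermediate and 1 rich, 6 were of the ogp2 series, and their 3 receptors summed to a median of 132.8 TPM.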

How the data were processed

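Single SVZ, striatum and cortex cells were grouped by the labels' tissue, and the 18 population libraries were not analysed here. The values the authors deposited are TPM, which the submitters' processing notes link to STAR 2.4.0g1, RSEM 1.2.18 and mm10. The gene annotation is not given in the sources used here. Of 43309 gene identifiers 42425 matched a symbol, and the most abundant identifier stood for a shared symbol. Columns were scaled to 1000000 TPM per cell, since 5 ogp columns as deposited sum to far less. No doublet caller was run, as cells were picked by hand.

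Group means gave log2 of (mean TPM + 1) ratios over all genes reaching 10 TPM in one of the groups, and a 2-fold limit was used. Replicates by animal are lacking, so no test of a difference between groups and no p-value was computed, and Dixon's test was used only to find cells that stand apart among the 4 cortex cells. Clopper-Pearson intervals came from scipy 1.17.1. The members, lists, classes and comparisons were chosen with earlier results of these data known. All 10 members were named, with up to 4 genes per pathway list and comparison by size of difference, listed genes under 1 TPM in every tissue, and the 3 most alike genes per member. Some genes that this rule names are not reported here. The procedure was tested on simulated data. Alternatives were another pseudocount, averaged logs, no filter, scaling by the median ratio, deposited values, single series, other limits of the ribosomal share, leaving out mitotic cells, and leaving out each cortex cell. Leaving out the 5 cells with low sums, and leaving out the 2 cells with Sox10 and Pdgfra, were added after seeing the data. Promoter windows are from RefSeq, GRCm38.p6.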

Additional observations from a re-analysis of the deposited data

Results flagged for a closer look

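In the 4 cortex cells Lfng stood at 22.3, 28.6, 28.6 and 66.4 TPM, and the gap from the highest cell (replicate 4) to the next took up 0.858 of the whole range, above the limit of Dixon's test for 4 values. Of the 5 members whose cortex values vary, 1 stood apart in this way, and chance does so in about 1 of 20 such groups. The same cell had the highest Notch2 (11.8 TPM) and Hes1 (32.7 TPM) of the 4, and the cause was not tested.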

How the results depend on the processing

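Of the main counts and shares repeated under other settings, 89 values stayed within 1.5 times of the count or within the interval of the share, and 15 moved. With logs averaged over cells, members at least 2-fold apart in cortex against SVZ were 2 lower and 1 higher, and in striatum against cortex 1 higher and 2 lower. In that setting Hes5 in cortex against SVZ was 0.43 and Hes1 in striatum against cortex was -1.89. With OGStr cells only, Hes1 was -3.57 and 1 member was lower in striatum than in cortex. With ogp2 cells only, 1 member was lower in striatum, 3 were lower in cortex, and 2 were higher in rich cells. Members lower in rich cells numbered 2 with no filter, with limits of 2% and 8%, and with ogp cells only. The share of ligand-bearing cells with a receptor was 86.8% at 10 TPM, and 100% with ogp cells only, with cells below the median number of genes, and without the 2 cells with Sox10 and Pdgfra. Without 1 cortex cell each in turn, members lower in cortex than SVZ ranged from 5 to 6, and members higher in striatum than cortex from 2 to 3. Of 272 repeats for single members, 231 moved by less than 1.5-fold. A change of sign was seen in 30, of which 26 started from a difference under 2-fold and 10 came with logs averaged over cells. Depth is unknown, and 4 cortex cells limit every comparison with them.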
